A study of Mus musculus with 44 samples.

Results

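The bone, cartilage and stromal progenitor (BCSP) is a sorted progenitor population of the newborn mouse skeleton, and its m6A immunoprecipitation (IP) is described here by 4 of the 44 libraries of the series. These are the 2 wild-type BCSP IP libraries and the 2 wild-type BCSP input libraries, chosen by their sample titles, and each IP library was set against the input library of the same replicate number. The series holds IP and input libraries of 8 sorted populations in wild-type animals, in 2 replicates each. These are SSC (the skeletal stem cell), pBCSP and BCSP, of which libraries titled Mettl3cko were made too, and HEC, PCP, THY, BLSP and 6C3. All are labelled as C57Bl6 long bone at postnatal day 3, without treatment. The Mettl3cko animals carried floxed Mettl3 alleles and Col2a1-Cre, whose promoter is active in cartilage cells and in growth plate stem and progenitor cells, and their genotype field nevertheless reads wild type. BCSP were isolated by flow cytometry from limb metaphyses and growth plates, with CD45, Ter119 and Tie2 stained to remove blood and vessel cells, CD51 and CD105 to keep and Thy1 and 6C3 to leave out. Cells of a sorted batch were divided between the IP and the input profile.

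N6-methyladenosine (m6A) is a methyl group placed on adenosines of RNA by a complex around METTL3 and METTL14, mostly within short contexts such as GGACU and often near the stop codon. Reader proteins of the YTH family bind it and alter the splicing, translation and decay of the transcript. An antibody against m6A pulls methylated RNA out of total RNA, so the share of a transcript in the IP library over its share in the input library measures its recovery by the antibody. The ratio is given per gene and does not locate a site.

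To show what this methylation context looks like in genes at both ends of the ratio, the pentamer GGACT and its variants GGACA and GGACC were searched. The search covered the spliced transcript of each gene, on the transcript's own strand, where the pentamers cannot overlap one another. The occurrence nearest to the last coding base was taken with 10 bases on each side. The windows below are from GRCm38, the capitals mark the pentamer, and the first 3 genes were enriched in the IP while the last 2 were depleted.
Chadl: aaggccaagaGGACAccaacctcca
Jund: gcgcatgcgcGGACTagctgcggtg
Rps4x: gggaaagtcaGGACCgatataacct
Serpinh1: ccttcgagtgGGACAccgagggcaa
Junb: aggggtcaagGGACAcgccttctga
The Jund window lies at chr8:70700097-70700121 on the plus strand, 29 bases after the last coding base. The pentamers of the other windows lie in coding sequence, Chadl at chr15:81692161-81692185 (minus), Rps4x at chrX:102187840-102187864 (minus), Serpinh1 at chr7:99346286-99346310 (minus) and Junb at chr8:84977395-84977419 (minus). The end of the Junb window reaches past the last coding base. Among the enriched genes, the Chadl transcript (2548 bases) held 13 of the pentamers, Jund (1668 bases) 7 and Rps4x (975 bases) 1, and the depleted Serpinh1 and Junb transcripts held 8 and 12. A window can be shown only for a transcript that holds a pentamer, so its presence in all 5 genes was set by their choice. At least 1 pentamer was found in 97.8% of all tested transcripts, 96.6% of the enriched and 99.8% of the depleted.

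The 2 input libraries held 32518936 and 32218160 counts and the 2 IP libraries 32196964 and 30486055. Depth was therefore close to equal between the arms, but the IP libraries detected fewer genes, 17914 and 16997 against 20081 and 19385 in the inputs. Across genes, log2 CPM (counts scaled to the library total) correlated with a Pearson r of 0.934 between the inputs and 0.825 between the IPs, and the IP-over-input ratios of the 2 pairs with r = 0.308. These are descriptions across genes, which are not independent replicates. With 2 pairs, p-values measure the spread between these 4 libraries only.

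The BCSP label was checked against marker genes. Itgav, which encodes CD51, had 2092 and 1421 input counts and Eng, which encodes CD105, had 3510 and 4389. Thy1 had 0 and 1 and Ptprc, the CD45 gene, 0 in both, while Enpep, the 6C3 antigen gene, still had 85 and 66. Col2a1, the major cartilage collagen, reached 2210399 and 2604389 counts in the inputs and 2633257 and 2507591 in the IPs (log2 fold change 0.14 ± 0.10, SE).
Summed markers of blood cells were low and higher in the IP arm. Over the 11 leukocyte markers the summed level was 19.02 and 15.1 CPM in the inputs and 69.4 and 43.2 CPM in the IPs, 3 of them having over 10 counts in all 4 libraries and Ptprc and Cd3e being at 0 in both inputs. Mpo went from 9 to 671 counts and Elane from 17 to 363 in pair 1, but from 0 to 22 and 5 to 4 in pair 2. Cd68, Cd79a, S100a8 and S100a9 rose in both pairs, Lyz2 hardly changed (224 and 126 against 246 and 116) and Csf1r was uneven (14 and 13 against 0 and 58). Over the 8 erythroid markers the summed level was 0.814 and 3.55 CPM against 3.75 and 9.28 CPM, with none over 10 counts in all 4 libraries, and over the 9 muscle markers 56.3 and 58.8 CPM against 107 and 109 CPM. Most of the muscle sum was Tnnt3 alone (1422 and 1542 against 2850 and 2852 counts), while Myod1, Pax7, Myh3 and Myh8 were at 0 throughout and Acta1 had 104 and 87 against 115 and 1. Endothelial markers summed to 46.2 and 23.6 CPM in the inputs and 35.5 and 15.6 CPM in the IPs, and osteoclast markers to 104 and 97.5 CPM against 81.7 and 77.1 CPM. The part of such cells in the results below was not tested.

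Of 46831 genes in the table, 16040 had enough counts to be tested. A gene was called enriched or depleted when its log2 IP/input fold change was beyond 1 in that direction with an unadjusted p under 0.05 (edgeR quasi-likelihood test with the pair as a block). By this rule 1016 genes were enriched, 6.33% of those tested, and 1670 were depleted, 10.4%. At a Benjamini-Hochberg adjusted p under 0.05 in the same edgeR test, 552 (3.44%) and 835 (5.21%) remained. In edgeR 136 and 371 remained when the pairing of IP and input was left out of the model. DESeq2 called 871 and 1502 after adjustment with the pair as a block, and 897 and 1368 without it. The median log2 fold change was 1.36 among the enriched genes, -1.64 among the depleted and -0.17 over all genes tested. The 2 IP libraries lay on one side of both inputs, without overlap, in 996 of the 1016 enriched and 1653 of the 1670 depleted genes, against 57.0% of all genes tested. In 710 and 1219 of them, respectively, each pair by itself was beyond 1. A fit without replicate 1, with the spread taken from all wild-type populations, tested 28935 genes. Its counts of calls can therefore not be set directly against these.

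**Figure D1:**
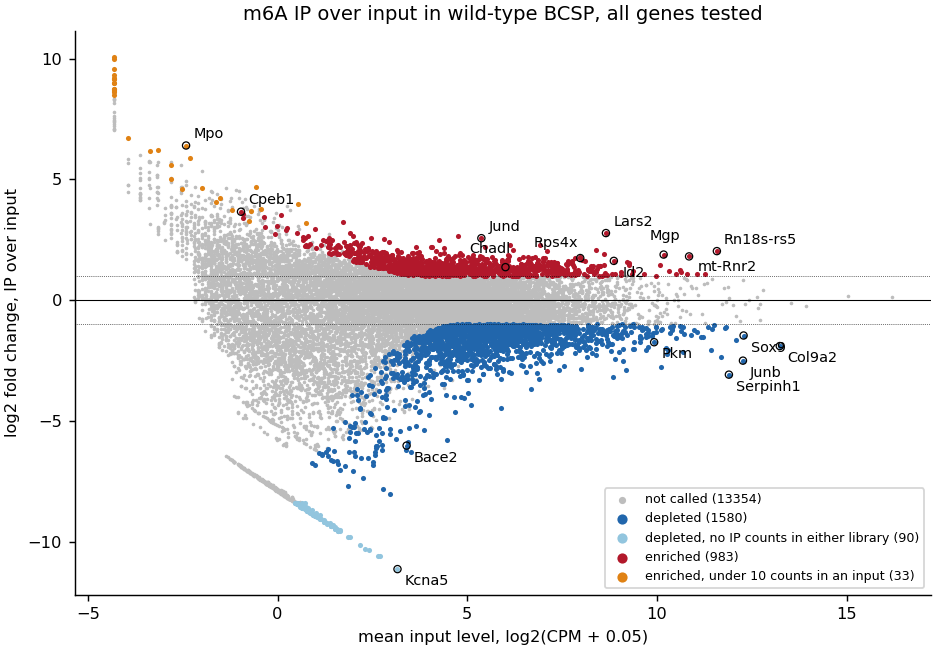
Log2 fold change of IP over input (vertical axis) against the mean input level on a log2 CPM scale (horizontal axis) for each of the 16040 genes tested in wild-type BCSP, with 983 enriched genes in red, 33 enriched genes with under 10 counts in an input library in orange, 90 depleted genes at 0 in both IP libraries in light blue, the other depleted genes in blue and genes not called in grey. The orange points sit at the low end of the input axis, and the dotted lines mark a log2 fold change of 1 and -1.

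Id2 and Chadl, the pair of genes given as markers for these cells, were both enriched. Id2, a helix-loop-helix protein that blocks differentiation factors and is itself a BMP target, had 16987 and 13139 counts in the inputs and 44809 and 44523 in the IPs. Both IP libraries lay far above both inputs, the log2 fold change was 1.62 ± 0.16 (SE, n = 2 pairs) and the edgeR adjusted p was 0.00867. Chadl, a chondroadherin-like leucine-rich repeat protein of cartilage, had 2327 and 1830 counts in the inputs and 5698 and 4660 in the IPs. Its groups did not overlap either, at a log2 fold change of 1.36 ± 0.20 and an edgeR adjusted p of 0.0124.

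The most abundant enriched RNAs were structural and noncoding as well as protein-coding. H19, an imprinted long noncoding RNA of fetal tissues, had 81784 and 76265 input counts and 153707 and 174617 IP counts (log2 fold change 1.10 ± 0.13). Mgp, the matrix Gla protein that restrains cartilage calcification, rose from 45563 and 29309 to 131903 and 130013 (1.88 ± 0.18), and Prg4, the lubricin of the joint surface, from 36904 and 45043 to 77238 and 109986 (1.22 ± 0.13). In all 3 genes both IP libraries were above both inputs, and the arms did not overlap in 57.0% of all genes tested.
The 18S ribosomal RNA entry Rn18s-rs5 had 137054 and 61331 counts in the inputs and 321717 and 408927 in the IPs (2.03 ± 0.33), and the mitochondrial 16S rRNA mt-Rnr2 63774 and 55258 against 173516 and 234742 (1.81 ± 0.18). These entries are uncertain, since rRNA reads can map to several loci, and so is Lars2, a mitochondrial leucyl-tRNA synthetase (14540 and 11535 against 63064 and 117314, log2 fold change 2.77 ± 0.30), whose locus is known to collect rRNA reads. Malat1, a nuclear long noncoding RNA, was enriched at 1.06 ± 0.15. It gave 0.91, below the threshold, in the fit of all wild-type libraries without BCSP replicate 2.

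Among enriched genes with at least 10 counts in both inputs, the highest folds belonged to genes of low input. Cpeb1, which controls poly(A) tail length, had 20 and 10 counts in the inputs and 221 and 139 in the IPs, a log2 fold change of 3.66 ± 1.25 with an edgeR adjusted p of 0.128. Its 2 groups did not overlap, but it did not pass the adjusted threshold. Firmer counts supported Esco2, a cohesin acetyltransferase (79 and 47 against 422 and 487, 2.93 ± 0.69, edgeR adjusted p = 0.0465), Nup155, a nuclear pore scaffold (162 and 93 against 715 and 787, 2.65 ± 0.52, edgeR adjusted p = 0.0287) and Eid1, an inhibitor of EP300 acetylation (1224 and 515 against 4922 and 4745, 2.64 ± 0.34, edgeR adjusted p = 0.0102).

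Depletion reached some of the most abundant transcripts of the cartilage program. Serpinh1, the collagen chaperone HSP47, had 109943 and 136073 counts in the inputs and 17063 and 11420 in the IPs. It was therefore 8.51-fold lower in the IPs (log2 fold change -3.09 ± 0.23, edgeR adjusted p = 0.00867), with no overlap. Col9a2, a chain of the fibril-associated collagen IX, fell from 275078 and 348095 to 89558 and 71779 (-1.91 ± 0.18), and Sox9, the master transcription factor of chondrocytes, from 144240 and 177446 to 59195 and 53254 (-1.47 ± 0.15). Ccdc80, a secreted matrix-binding protein, reached -2.34 ± 0.19 and Comp, the cartilage oligomeric matrix protein, -1.10 ± 0.12. All 5 had both IP libraries below both inputs, and the arms did not overlap in 57.0% of all genes tested. Mfge8, a bridging protein for apoptotic cells, was depleted at -1.20 ± 0.13. Tsc22d1 (-1.15 ± 0.16) and Rcan1, a calcineurin inhibitor (-1.03 ± 0.13), were also called. In the fit of all wild-type libraries, Tsc22d1 was at -0.85 without BCSP replicate 2. Rcan1 was at -0.97 in that fit, with both BCSP replicates and without replicate 1. Its ratios in the 2 BCSP pairs lay between -1.10 and -1.04.

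The depleted genes with the lowest fold changes had 0 counts in both IP libraries. Kcna5, a voltage-gated potassium channel, had 356 and 220 input counts and none in the IPs, at least 93.0-fold lower against a floor of 3 counts per library (edgeR adjusted p = 0.0202). Ager, the receptor for advanced glycation end products, had 161 and 237 input counts and was at least 64.5-fold lower, and Mill2, an MHC class I-like gene, had 149 and 169 and was at least 51.5-fold lower. Adamts4, an aggrecan-cleaving protease, had 80 and 101 and was at least 29.3-fold lower. Of 11630 genes with at least 50 counts in both inputs, 292 were at 0 in 1 IP library and 35 in both. In the other direction, of 10806 genes with at least 50 counts in both IPs, 24 were at 0 in 1 input and 5 in both.

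**Figure D2:**
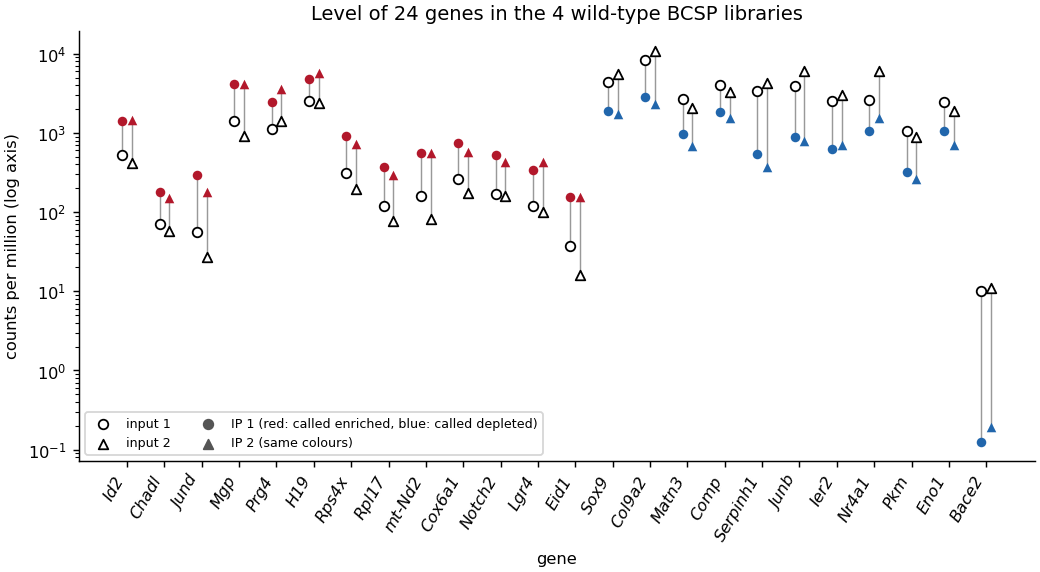
Level in CPM (log axis) of 24 enriched and depleted genes in the 4 wild-type BCSP libraries, with the input (open) and IP (filled) points of each pair joined, circles for pair 1 and triangles for pair 2. Red marks IP points of enriched genes and blue those of depleted genes, and in each pair of Id2, Chadl and Mgp the IP point is above its input while in Serpinh1, Junb and Col9a2 it is below.

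Genes with hardly any input were weighed apart. Of the 1016 enriched genes, 33 had under 10 counts in at least 1 input library, 17 of them at most 3 in both and 15 exactly 0 in both, and 19 of the 33 were predicted Gm models or Rik clones. The remaining 983 rested on at least 10 counts in each input. Only 1 of the 33 passed the adjusted threshold in the edgeR test, Mpo, the myeloperoxidase of neutrophil precursors, with 9 and 0 input counts against 671 and 22 in the IPs (log2 fold change 6.40 ± 1.17, edgeR adjusted p = 0.0225). Nearly all of its IP counts came from a single library, and Mpo is also among the leukocyte markers above.
Asxl3, a Polycomb-associated factor, had 142 and 123 IP counts with 0 in both inputs, at least 45.5-fold higher, and Xirp2, an actin-binding muscle protein, had 110 and 141, at least 43.1-fold higher. Scg5, a secretory granule chaperone, had 127 and 32 and was at least 27.1-fold higher. Hecw1, a ubiquitin ligase, had 10 and 121. These counts were uneven between the IP libraries for Scg5 and Hecw1 and even for Asxl3 and Xirp2, and none of the 15 genes at 0 in both inputs passed the adjusted threshold in the edgeR test.
By input class, 17 of the 69 tested genes with at most 3 counts in both inputs were called enriched (24.6%), 16 of 1501 with under 10 in at least 1 (1.07%) and 983 of 14470 with at least 10 in both (6.79%). No gene of either low class was depleted. A gene with at most 3 counts in both inputs entered the test only through its IP counts. The 24.6% and the absence of depleted genes in that class are therefore set by the filter. In the class with under 10 in at least 1, the filter required counts in at least 1 IP library, which works against a depleted call. The 2 pairs' ratios differed with an SD of 1.83 log2 units in the best-supported class, 3.96 in the class with under 10 in at least 1 and 1.34 in the class with at most 3 in both. On the depleted side, 190 of 1670 genes had under 10 counts in at least 1 IP library, 112 of them at most 3 in both and 90 exactly 0 in both. By IP class, 112 of 467 tested genes with at most 3 counts in both IPs were depleted. Of the 2582 others with under 10 in at least 1, 78 were, and no gene of either class was enriched. Genes with at most 3 in both IPs entered the test only through their input counts, so their share too is set by the filter.

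Ribosomal protein mRNAs had the most enriched members of the gene groups described here. Of 79 tested genes for cytosolic ribosomal proteins, 61 were enriched and none depleted, with a median log2 fold change of 1.34, against 1016 enriched of 16040 and a median of -0.17 over all genes. The log2 fold change was above 0 in 78 of the 79. Rps4x had 10147 and 6176 counts in the inputs and 29091 and 22652 in the IPs (1.74 ± 0.17, edgeR adjusted p = 0.00867), and Rpl17 3839 and 2454 against 11868 and 9118 (1.80 ± 0.18). Both rose without overlap between the arms, which was absent in 57.0% of all genes tested. Rps10 was the exception at -0.65 ± 0.99, not called, with 188 and 116 against 108 and 77. Ribosomal protein genes have many processed pseudogenes, and how reads shared with these copies were assigned is not given in the sources used here.

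Respiratory chain mRNAs were enriched from both genomes, and are given beside the 6.33% enriched and 10.4% depleted of all genes tested. Of the 13 mRNAs of the mitochondrial genome, 10 were enriched and none depleted (median 1.57). Of the 10, 7 passed the adjusted threshold in the edgeR test, and 2 of the 13 had under 10 counts in an input library. mt-Nd2, a complex I subunit, had 5252 and 2620 counts against 17917 and 17358 (2.29 ± 0.26), and mt-Cytb of complex III had 63454 and 50382 against 119758 and 113273 (1.09 ± 0.13). Of 81 nuclear oxidative phosphorylation genes, 39 were enriched and 4 depleted (median 1.01), among them Cox6a1 of complex IV (8521 and 5564 against 23896 and 17721, 1.62 ± 0.16) and Uqcrb of complex III (2829 and 1624 against 8616 and 6402, 1.83 ± 0.20). The depleted members included core catalytic or processing subunits, among them Ndufv1 (-1.45 ± 0.26) of complex I, Sdha (-1.74 ± 0.21) of complex II and Uqcrc1 (-1.31 ± 0.22) of complex III.
Glycolysis moved the other way. Of 16 glycolytic genes, 7 were depleted and none enriched (median -0.74), against 10.4% depleted of all genes tested. Pkm, pyruvate kinase, had 34231 and 28650 input counts and 10179 and 8068 IP counts (-1.75 ± 0.15, edgeR adjusted p = 0.00867), Eno1, enolase, 79054 and 59821 against 33448 and 21695 (-1.31 ± 0.14), and Pfkl, a phosphofructokinase, 8069 and 8321 against 2008 and 588 (-2.86 ± 0.44). The remaining depleted members were Ldha, Ldhb, Pgam1 and Aldoc, and the arms did not overlap in the 7 depleted genes, as in 57.0% of all genes tested.

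**Figure D3:**
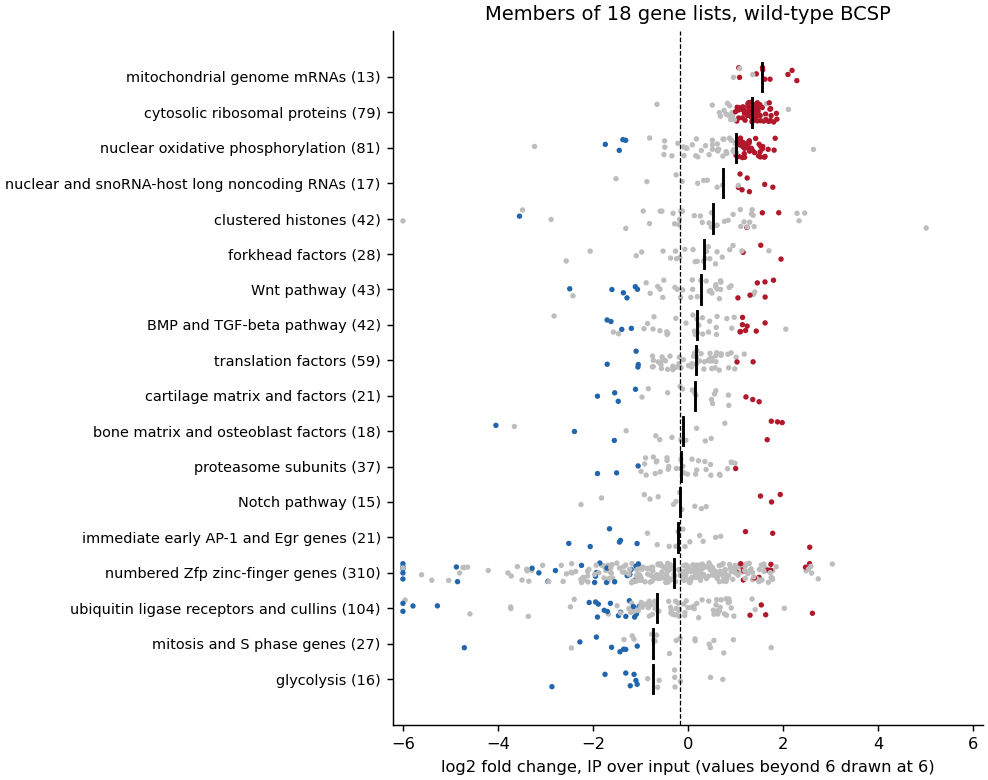
Log2 fold change of IP over input for the tested members of selected gene groups in wild-type BCSP, each point a gene (red enriched, blue depleted, grey not called, values beyond 6 drawn at 6), with the group median as a bar and the median of all genes as a dashed line. Ribosomal protein and mitochondrial genome mRNAs lie almost wholly above 0, and glycolysis and mitosis genes mostly below.

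Of 21 immediate early AP-1 and Egr genes, 3 were enriched and 6 depleted (median -0.21), against 6.33% and 10.4% of all genes tested. The Jun family itself divided, as Jund had 1802 and 878 counts in the inputs and 9322 and 5587 in the IPs (2.56 ± 0.20), whereas Junb had 125719 and 191937 against 28316 and 24792 (-2.51 ± 0.21) and Jun 48247 and 60800 against 19272 and 20006 (-1.42 ± 0.15). None of the 3 overlapped between arms, as in 57.0% of all genes tested. Ier2 (-2.06 ± 0.13) and the nuclear receptor Nr4a1 (-1.65 ± 0.18), other early response genes, were also depleted.
Signaling pathways are given beside the 6.33% enriched and 10.4% depleted over all genes tested. Of 42 BMP and TGF-beta genes, 8 were enriched and 4 depleted (median 0.19). Smad4, the common mediator of both branches, had 916 and 795 against 2566 and 1959 (1.44 ± 0.26), the receptors Bmpr2 (1.15 ± 0.26) and Acvr2a (1.21 ± 0.47), the mediator Smad1 (1.10 ± 0.32), the ligand Bmp6 (1.10 ± 0.28), the BMP antagonist Grem1 (1.14 ± 0.29) and the ubiquitin ligase Smurf2 (1.24 ± 0.31) were enriched with Id2, and the ligands Bmp7 (-1.70 ± 0.38), Gdf5 (-1.62 ± 0.47) and Inhba (-1.19 ± 0.19) were depleted. The remaining depleted gene was Tgfb3 at -1.39 ± 0.26. It was at -0.98 in the fit of all wild-type libraries without BCSP replicate 2. Its ratios in the 2 BCSP pairs lay between -1.79 and -1.06.
Of 43 Wnt genes, 6 were enriched and 6 depleted (median 0.27). Lgr4, an R-spondin receptor, had 3906 and 3226 against 10682 and 13476 (1.80 ± 0.21), and Znrf3, the ligase that removes Frizzled receptors, 4266 and 3999 against 9313 and 10548 (1.31 ± 0.18). The receptors Fzd2 and Fzd8, the ligand Wnt4 and the transcription factor Tcf7l1 (1.62 ± 0.30) were also enriched, and Tcf7 (-2.49 ± 0.70), Sfrp2, Dvl2, Lrp4, Wif1 and Dkk3 depleted. The inhibitor Wif1 stood at -1.11 ± 0.15, and at -0.93 in the fit of all wild-type libraries without BCSP replicate 2. Its ratios in the 2 BCSP pairs lay between -1.27 and -1.02.
Of 15 Notch genes, 3 were enriched and none depleted (median -0.18, and -0.21 and 0.05 in the single pairs), namely the receptor Notch2 (5544 and 5059 against 16593 and 13205, 1.53 ± 0.17), the ligand Jag1 (743 and 408 against 2439 and 1342, 1.76 ± 0.28) and the coactivator Maml1 (1.94 ± 0.59). Of 18 Hedgehog genes none was enriched and 2 were depleted, beside 10.4% depleted over all genes tested. The median was -0.06 in the fit but 0.13 and 0.22 in the single pairs. The depleted members were Spop, a ubiquitin ligase adaptor (-1.70 ± 0.23), and the ligand Ihh (-1.15 ± 0.26). Ihh was at -0.65 in the fit of all wild-type libraries without BCSP replicate 2.

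Skeletal matrix and factor genes are given beside the same shares of all genes, 6.33% enriched and 10.4% depleted. Of 21 cartilage genes, 3 were enriched (Prg4, Chadl and Mia, a cartilage-derived secreted protein) and 4 depleted (Col9a2, Sox9, Comp and Matn3, a matrilin at -1.54 ± 0.13), with a median of 0.14. Acan, the aggrecan core protein, stood at 0.86 ± 0.12 and was not called. Of 18 bone genes, 4 were enriched (Mgp, the osteocalcin genes Bglap and Bglap2, and Phex, an endopeptidase of phosphate balance) and 3 depleted (the osteoblast factors Sp7 at -1.55 ± 0.41 and Dlx3, and Dmp1, an osteocyte matrix protein at -4.04 ± 1.38), with a median of -0.10. Bglap input counts were 3299 and 621 and its IP counts 10244 and 1902, so the arms overlapped although each pair rose (1.67 ± 0.19), and Bglap was no longer called when the pairing was left out (1.67). The Bglap and Bglap2 sequences are nearly identical and their counts cannot be fully told apart. Between the replicates, whose Bglap levels differed, a different share of bone-forming cells and a different RNA amount per cell cannot be told apart.

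Cell cycle and protein turnover groups are given beside the 10.4% depleted over all genes tested. Of 27 mitosis and S phase genes, 8 were depleted and none enriched (median -0.73), among them Rrm2, a ribonucleotide reductase subunit (1617 and 1704 against 463 and 387, -1.93 ± 0.31), and Cdc20, an activator of the anaphase-promoting complex (1210 and 1121 against 426 and 126, -2.28 ± 0.51). Of 104 ubiquitin ligase receptors and cullins, 4 were enriched and 19 depleted (median -0.66), with Fbxo17 at -2.08 ± 0.35. Proteasome subunits did not follow, with 1 enriched and 3 depleted of 37 (median -0.15).
Of 7 genes of the m6A writer complex, 2 were enriched and none depleted, against 6.33% and 10.4% of all genes tested. Rbm15 (1.08 ± 0.25) and Wtap (1.09 ± 0.31) were the enriched members. In the fit of all wild-type libraries without BCSP replicate 2 they stood at 0.71 and 0.54. Of 11 readers and erasers, the reader Ythdf1 was enriched (977 and 698 against 1969 and 2074, 1.33 ± 0.29) and Ythdf3 depleted (-1.19 ± 0.28). Ythdf3 was at -0.89 in the same fit without BCSP replicate 1.
Over all genes tested, 6.33% were enriched and 10.4% depleted. In the other groups, enriched and depleted members numbered 12 and 26 of 310 numbered Zfp genes, 2 and 4 of 59 translation factors, 1 and 2 of 41 collagen chains, 1 and 0 of 12 small leucine-rich proteoglycans, 2 and 1 of 15 FGF genes, 2 and 2 of 16 Kruppel-like factors, 3 and 0 of 28 forkhead factors, 0 and 1 of 12 Sox factors, 2 and 1 of 27 Hox genes, 2 and 1 of 49 histone lysine methyltransferases and demethylases, 2 and 2 of 33 ubiquitin-conjugating enzymes and 3 and 1 of 42 clustered histones. Long noncoding RNAs of the nuclear and snoRNA-host kind had 7 enriched and none depleted of 17 (median 0.73), with Gas5 at 1.25 ± 0.17. Predicted Gm genes had 53 enriched and 23 depleted of 1696, Rik clones 51 and 23 of 817, and none of 7 olfactory and vomeronasal receptors was called. Gm14323 and Gm14414 had nearly the same counts in every library and are uncertain as separate genes.

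Transcript properties that the calls did not use differed between the groups. Of the 16040 genes tested, 15484 matched a reference transcript. In quintiles of transcript length, the median log2 fold change was 0.51 among the shortest (up to 1390 bases), -0.56, -0.62 and -0.35 in the middle and 0.17 among the longest (over 4659 bases). Enriched genes made up 11.7% of the shortest and 9.07% of the longest, and 3.26%, 3.33% and 3.87% in between, while depleted genes made up 2.13% and 4.55% at the ends and up to 19.4% in the middle. Without ribosomal protein, mitochondrial genome and oxidative phosphorylation genes, a choice made after seeing the data, enriched genes still made up 9.08% of the shortest and 9.01% of the longest. The median GC content was 48.5% in enriched, 53.7% in depleted and 50.2% in all tested transcripts, and the share depleted went from 4.49% to 18.3% over quintiles of GC content.
Depleted transcripts had more exons, with a median of 10 against 5 in the enriched and 7 in all. Their density of the 3 pentamers was also higher, at a median of 4.25 per kb against 3.16 in the enriched and 3.60 in all. GC content and pentamer density share their base composition, and transcript length and exon number are related too, so these properties cannot be told apart here.

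**Figure D4:**
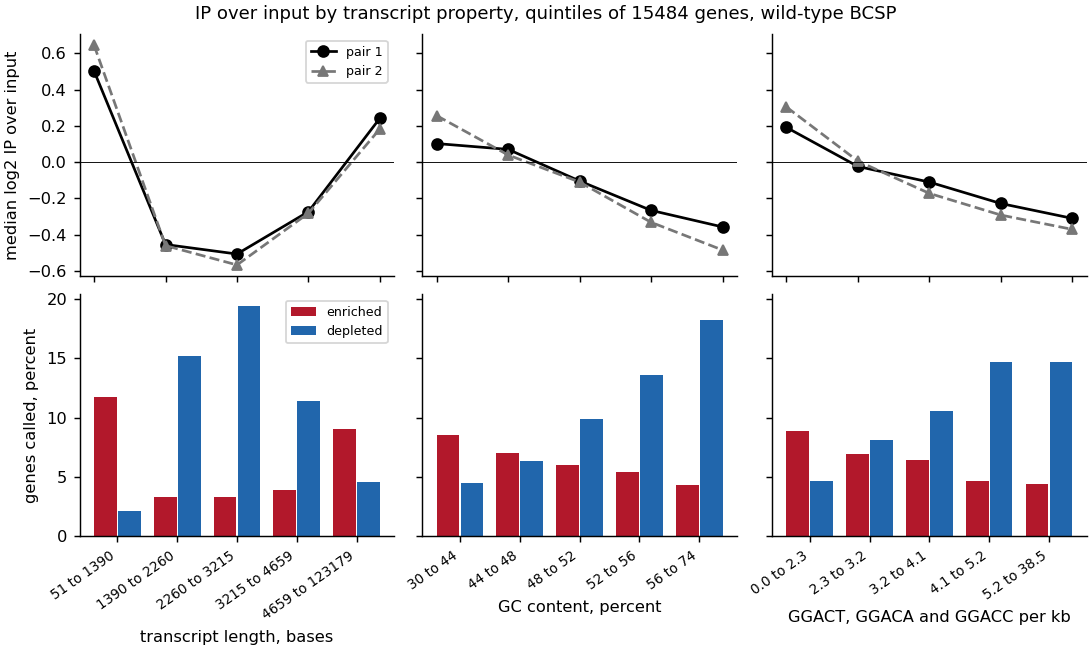
Top row, median log2 IP over input in quintiles of transcript length, GC content and pentamer density for each of the 2 wild-type BCSP pairs, and bottom row, the percentage of genes enriched (red) and depleted (blue) in the same quintiles. Both pairs give the same shape, with the middle lengths lowest and a decline over GC content and over pentamer density.

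To ask which ratios differed in BCSP from those of other populations, the BCSP ratio was set against the mean of SSC and pBCSP, and against the mean of PCP, THY, BLSP, 6C3 and HEC, as interactions in 1 edgeR fit of the 32 wild-type libraries. Against SSC and pBCSP, 833 of 25365 genes had a higher BCSP ratio (3.28%) and 767 a lower one (3.02%), and 79 and 70 at the adjusted threshold. Without BCSP replicate 1 the lower genes numbered 1341, and in a fit of the SSC, pBCSP and BCSP libraries alone the counts were 280 and 313. Against the other 5 populations, 1149 were higher (4.53%) and 1052 lower (4.15%), and 484 and 279 at the adjusted threshold. The 2 contrasts share the BCSP libraries.
Chadl was set apart from the 5 populations and not from SSC and pBCSP. Its log2 ratio was 1.30 and 1.35 in the BCSP pairs, between 0.46 and 1.84 in the 4 SSC and pBCSP pairs and between -3.61 and -0.18 in the 10 pairs of the 5 populations. The difference from the latter was 2.87 ± 0.37 (edgeR adjusted p = 2.44e-08) and from the former 0.10 ± 0.40. Id2 was positive in every wild-type pair, the lowest being 0.65, and neither difference was called (0.05 ± 0.23 and 0.54 ± 0.21). Jund was higher in BCSP than in the 5 populations by 1.36 ± 0.27 (edgeR adjusted p = 0.000344). The SSC and pBCSP pairs had Jund ratios between 2.62 and 3.38, as high as or higher than the 2.38 and 2.67 of BCSP.
H19 had a lower BCSP ratio than the 5 populations, by -1.14 ± 0.19 (edgeR adjusted p = 2.0e-05). Its ratio lay between 0.92 and 1.20 in BCSP and between 1.46 and 1.92 in SSC and pBCSP. The ratio of Bace2, an aspartyl protease, was lower in BCSP than in either set, with 4 and 6 IP counts against 325 and 354 input counts. Serpinh1, Junb, Mgp and Sox9 had ratios whose differences were not called in either contrast, and Serpinh1 lay between -3.57 and -2.67 in BCSP, between -3.48 and -3.05 in SSC and pBCSP and between -2.995 and -2.15 in the others.
Ribosomal protein mRNAs had a median ratio of 1.07 to 1.45 in the 2 BCSP pairs, 0.948 to 1.44 in SSC and pBCSP and 1.57 to 2.34 in the 5 populations. The mitochondrial genome mRNAs ran from 0.929 to 1.87, 1.37 to 2.87 and 1.92 to 4.71 in the same order, and nuclear oxidative phosphorylation genes from 0.855 to 1.11, 0.447 to 1.11 and 1.28 to 1.89. For the ribosomal protein and nuclear oxidative phosphorylation groups the BCSP pairs lay within or near the range of SSC and pBCSP and below the 5 populations, and these ranges are descriptions with no test.

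**Figure D5:**
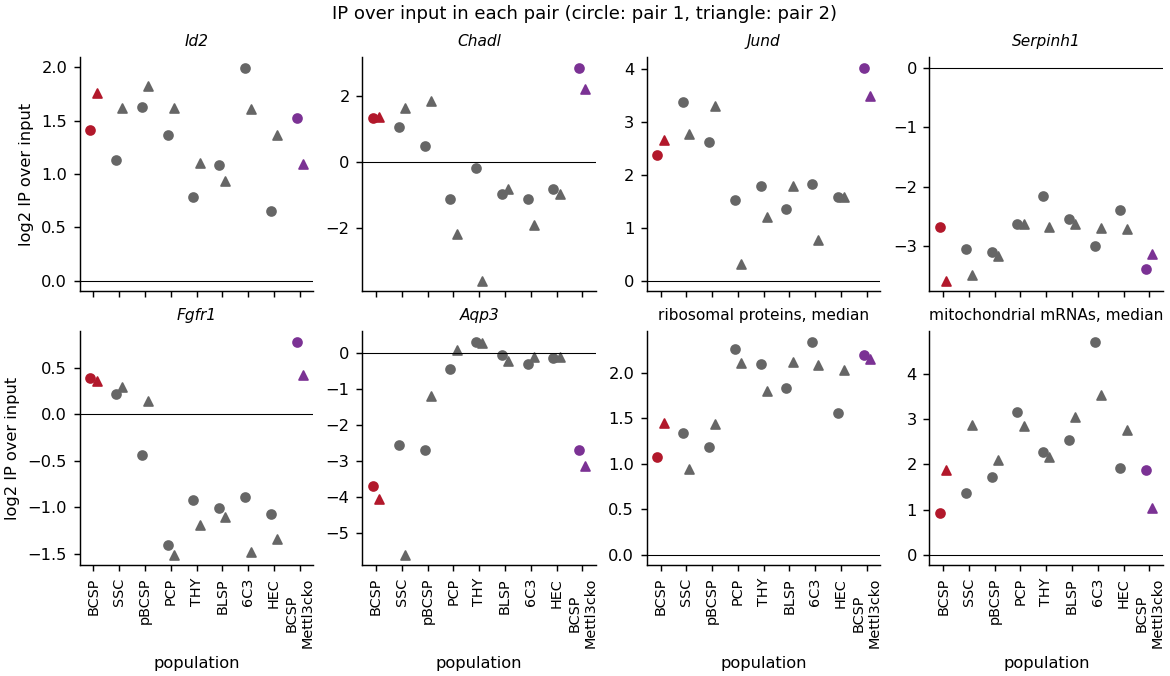
Log2 IP over input in each of the 2 pairs of every wild-type population and of BCSP labelled Mettl3cko, for single genes and for the medians of gene groups. Wild-type BCSP is in red, other wild-type populations in grey and BCSP labelled Mettl3cko in purple, and for Chadl the SSC, pBCSP and BCSP points are above 0 while those of the other wild-type populations are below.

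The BCSP libraries labelled Mettl3cko allowed a comparison by genotype label. Mettl3 itself had 571 and 618 counts in the wild-type inputs (17.6 and 19.2 CPM) and 458 and 607 in the inputs labelled Mettl3cko (15.2 and 18.01 CPM), so the count over the whole gene did not separate the labels clearly. Counts per gene do not show whether a deleted exon is missing. The BCSP IP libraries labelled Mettl3cko detected 14415 and 13991 genes, against 17914 and 16997 in the wild-type IPs. The inputs labelled Mettl3cko detected 18270 and 19884, against 20081 and 19385. The part of this difference in the ratios below was not tested. The IP-over-input ratio was higher in the libraries labelled Mettl3cko for 217 of 17605 genes (1.23%) and lower for 637 (3.62%). None passed the adjusted threshold in the edgeR test, in which 1122 had an unadjusted p under 0.05, while DESeq2 with the same block called 83 and 387 after adjustment. These counts depended on single libraries, from 116 higher and 83 lower without wild-type replicate 1 and 108 lower without wild-type replicate 2 to 536 and 2057 without Mettl3cko replicate 1 and 860 and 1847 without Mettl3cko replicate 2.
Chadl was 1.19 ± 0.32 and Jund 1.23 ± 0.31 higher in the libraries labelled Mettl3cko (edgeR adjusted p = 0.715 for both), and Id2 differed by -0.28 ± 0.24, which was not called. Rps12, a ribosomal protein gene, was 1.88 ± 0.30 higher (edgeR adjusted p = 0.715), and the ribosomal protein median was at least 2.16 in both of these pairs, above both wild-type BCSP pairs. The median difference over all genes was -0.31, against which these values are read.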

How the data were processed

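SLIM-seq pulls m6A-carrying RNA out of total RNA with an antibody and sequences it beside the input RNA by a Smart-seq2 based protocol. The authors trimmed reads with fastp 0.20.1, aligned them to GRCm38 with HISAT2 2.2.1 and counted them per gene with featureCounts 2.0.1, and the deposited values are raw counts. The annotation release, the strand setting and the handling of reads that map to several genes are not given in the sources used here, so a gene and its antisense partner cannot be told apart. No molecular identifiers are mentioned, so PCR copies can add spread beyond counting error. The 2 other deposited tables hold the authors' fold changes and p-values for Mettl3cko against wild-type SSC and were not used. Of 46959 entries, 128 with repeated names were left out, at most 0.106% of the counts of a BCSP library.

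Counts were tested with edgeR 4.0.16 (R 4.3.3) after TMM scaling and the default expression filter, by the quasi-likelihood F test with the IP and input pair as a block and Benjamini-Hochberg adjustment over all genes tested. The SE is the log2 fold change over the square root of F. The block rests on the study's account that cells of a sorted batch were divided between both profiles. Deviations of same-numbered libraries from their group means correlated with r = 0.0917 in wild-type BCSP, below 0.1. Replicates were compared before use, and their counts differed far beyond sampling noise, with a chi-square per degree of freedom of 91.4 between the inputs and 110 between the IPs. Thresholds (log2 fold change beyond 1, unadjusted p under 0.05) are those of the study. Ratios for single pairs used a prior count of 2. For single genes, values without a BCSP replicate came from the fit of all wild-type libraries, whose scaling differs. Named genes were the 15 enriched and 15 depleted with the largest fold, the 10 most abundant of each, called genes with hardly any input, the markers, 4 leading members of each group and 5 genes of each interaction in each direction, and others named are members of those groups. Genes outside this rule were chosen after their values were seen. The members, gene groups and tests were chosen with earlier results of these data known. Fits were tested on simulated counts. Transcripts came from the GENCODE vM21 annotation of GRCm38. Alternatives were DESeq2 1.42.0, other scalings and filters, no block, a fit of all wild-type libraries and leaving out each replicate. Figures used matplotlib 3.10.9. A few items are not reported here.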

Additional observations from a re-analysis of the deposited data

Results flagged for a closer look

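In each of 2 interactions over the 32 wild-type libraries, the 10 genes whose BCSP ratio differed most clearly from that of other populations are given as differences in log2 IP over input, each at an edgeR adjusted p under 0.05. Against the mean of SSC and pBCSP, the BCSP ratio was lower for Bace2 (-4.88), Pcdh7 (-6.67), Cyp2d22 (-7.27), Adamts4 (-8.16) and Inpp4b (-8.72), and higher for Plk4 (3.73), Gm42576 (7.69), Adamts8 (8.18), Mbp (2.48) and Ackr4 (6.27). Most of these rest on few IP counts in BCSP or in the populations it was compared with, and Adamts4 and Inpp4b were at 0 in both BCSP IP libraries. Adamts8 had 10 and 0 counts and Ackr4 45 and 0 in the BCSP IPs, so their higher BCSP ratios go with BCSP ratios that were not above 0. Against the mean of PCP, THY, BLSP, 6C3 and HEC, the BCSP ratio was higher for Sdc3, a cell surface proteoglycan (2.35), Ltbp4, a TGF-beta binding matrix protein (2.48), the matrix glycoprotein Tnc (1.82), the Wnt receptor Fzd9 (2.34) and the FGF receptor Fgfr1 (1.77). It was lower for Bace2 (-4.96), the water channel Aqp3 (-3.68) and the ribosomal RNA entries Rn18s-rs5 (-2.2), mt-Rnr2 (-1.56) and mt-Rnr1 (-1.65). Sdc3, Tnc and Fgfr1 were not called in BCSP itself (0.10 ± 0.17, 0.33 ± 0.21 and 0.41 ± 0.16), and the mean ratios of the other populations were -2.08, -1.32 and -1.19. All groups held 2 samples, so none was checked for single samples that stand apart.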

How the results depend on the processing

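Of 86 genes followed, none changed sign under the alternatives run. These genes were named mainly for their fold, abundance or p in the same data, which makes a change of sign unlikely. Of 32 group medians, 10 changed sign, the m6A writer, Notch and Hedgehog medians among them. The farthest of the 10 stood 0.29 from 0 in the reported fit. Of the 86 genes, 68 kept their call under every alternative and 80 under all that kept both pairs. Leaving the pairing out of the edgeR model gave 1070 enriched and 1871 depleted genes, of which 945 and 1481 were called with the replicate block too. After adjustment only 136 and 371 remained in edgeR, against 897 and 1368 in DESeq2 without the block. The edgeR fits without pairing also gave 76 enriched genes with hardly any input and, by genotype label, 354 higher and 1346 lower. One fit of all 32 wild-type libraries called 1549 enriched and 2895 depleted, but of 25365 genes tested instead of 16040. A single pair, assumed to vary like the other populations, gave 1320 to 1776 enriched and 2492 to 3250 depleted, the higher counts without replicate 1. The adjusted threshold gave 552 and 835, 79 and 70 against SSC and pBCSP, 484 and 279 against the other 5 populations, and 0 and 0 by genotype label. Against SSC and pBCSP, a fit of those 12 libraries alone gave 280 higher and 313 lower, and leaving out a BCSP replicate 1096 to 1199 higher and 990 to 1341 lower, the last without replicate 1. Against the 5 populations DESeq2 called 1781 lower. By genotype label DESeq2 gave 441 higher and 1430 lower, and leaving out a replicate 116 to 860 higher and 83 to 2057 lower: 116 and 83 without wild-type replicate 1, 108 lower without wild-type replicate 2, 536 and 2057 without Mettl3cko replicate 1, and 860 and 1847 without Mettl3cko replicate 2. The cause of these shifts was not tested. Leaving out a replicate, 55 to 68 ribosomal protein genes were enriched and 6 to 7 glycolytic genes depleted. Without ribosomal protein, mitochondrial genome and oxidative phosphorylation genes, a choice made after seeing the data, the median length of enriched transcripts went from 2448 to 2904 bases, from below to above that of depleted transcripts (2667 and 2669), while the pentamer medians were 3.19 and 4.25 per kb. With 2 pairs and few counts, genes under 10 input counts have ratios that depth cannot fix.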
